A study of Mus musculus with 12 samples.

Results

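The genes described here are the mouse Hox genes of the Hoxa, Hoxb, Hoxc and Hoxd clusters, measured as RNA in white (WAT) and brown (BAT) adipose tissue. Members were the rows of the value table that name exactly 1 gene with a symbol of Hoxa, Hoxb, Hoxc or Hoxd followed by a number, with 1 row per gene. This gave 37 genes of the 19938 genes in the table. The members comprise 10 Hoxa, 9 Hoxb, 9 Hoxc and 9 Hoxd genes, and each was read from a single row. The animals were male mice aged 20 weeks, kept under cycles of light and dark and fed chow freely, and either lacked the circadian clock repressor Per2 (per2-/-) or carried it intact (per2+/+). The 4 groups were WAT of per2+/+, WAT of per2-/-, BAT of per2+/+ and BAT of per2-/- mice, with 3 arrays in each and 12 arrays in all. The labels call the replicates biological, name no fat depot for WAT or BAT, and do not say whether WAT and BAT of a given replicate number came from the same animal.

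Hox genes encode homeodomain transcription factors that give cells their position along the body axis. They lie in 4 clusters, and within a cluster the paralogue number runs from genes used towards the head to genes used towards the tail. Adult fat depots keep a Hox profile that differs from depot to depot, and Hox RNA is therefore widely read as a record of where a tissue arose. In bulk tissue, fewer cells of a type and less RNA per cell cannot be told apart.

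Sequences are shown for members on either side of the tissue difference and for the microRNAs that lie inside the clusters. The promoter windows run from 250 bases before to 50 bases after the gene start and come from RefSeq on GRCm38.p6, 5′ to 3′ along the gene. Capitals mark matches on either strand to a PBX-HOX composite site (TGATNNAT), a CDX site (TTTATG) or an E-box (CACGTG, the element bound by clock activators). Hoxa5, which was higher in BAT, lies at chr6:52204538-52204837 on the minus strand and has no match. Hoxb4 at chr11:96318017-96318316 on the plus strand has none either. Hoxd3 at chr2:74711743-74712042 on the plus strand has 1 CDX match, and Hoxd4 at chr2:74721728-74722027 on the plus strand has 2 CDX matches and 1 E-box. No marked match overlaps another, and Hoxb4, Hoxd3 and Hoxd4 were lower in BAT.
Hoxa5: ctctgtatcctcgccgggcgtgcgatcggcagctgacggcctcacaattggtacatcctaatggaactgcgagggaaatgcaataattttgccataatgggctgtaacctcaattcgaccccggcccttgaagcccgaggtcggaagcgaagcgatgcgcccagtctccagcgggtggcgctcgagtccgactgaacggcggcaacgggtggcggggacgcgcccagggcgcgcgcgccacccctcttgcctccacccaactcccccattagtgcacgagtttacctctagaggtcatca
Hoxb4: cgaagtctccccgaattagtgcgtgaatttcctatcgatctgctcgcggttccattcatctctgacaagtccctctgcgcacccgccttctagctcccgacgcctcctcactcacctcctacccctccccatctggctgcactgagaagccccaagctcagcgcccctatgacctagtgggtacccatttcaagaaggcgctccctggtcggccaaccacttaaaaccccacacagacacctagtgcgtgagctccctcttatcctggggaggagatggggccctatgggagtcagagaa
Hoxd3: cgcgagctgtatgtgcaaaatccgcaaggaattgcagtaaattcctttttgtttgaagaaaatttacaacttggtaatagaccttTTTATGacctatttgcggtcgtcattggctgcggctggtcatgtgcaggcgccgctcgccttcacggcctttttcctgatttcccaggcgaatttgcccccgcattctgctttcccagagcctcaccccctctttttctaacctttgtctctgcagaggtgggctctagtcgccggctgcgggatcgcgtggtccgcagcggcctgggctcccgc
Hoxd4: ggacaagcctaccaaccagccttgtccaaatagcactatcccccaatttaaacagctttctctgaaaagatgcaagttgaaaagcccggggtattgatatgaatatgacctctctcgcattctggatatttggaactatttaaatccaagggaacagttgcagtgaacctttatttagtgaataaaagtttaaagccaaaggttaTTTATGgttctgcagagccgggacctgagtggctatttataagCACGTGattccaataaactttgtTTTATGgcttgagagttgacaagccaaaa

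The table of promoters held 23 windows of 21 members. Among these windows 13% held the PBX-HOX letters, 17.4% the CDX letters and 21.7% the E-box letters, or 3, 4 and 5 windows. Among all 32851 promoter windows of the same length the shares were 8.85%, 11.9% and 7.15%. The CpG dinucleotide occurred a median of 15 times in a Hox window and 7 times in any window. A match of letters is a description and not a binding site. The mature forms of miR-10a and miR-10b, which derive from the Hoxb and Hoxd clusters, are shown with the seed (bases 2 to 8) in capitals, since the rows of both were lower in BAT, as were those of neighbouring Hox genes. miR-10a-5p lies at chr11:96317186-96317208 and miR-10b-5p at chr2:74726074-74726096, both on the plus strand.
miR-10a-5p: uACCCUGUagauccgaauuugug
miR-10b-5p: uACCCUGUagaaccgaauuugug

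The seeds are identical. The mature forms differ by 1 base, U12A, counted from the 5′ end of miR-10a-5p.

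Values are PLIER intensities, a linear probe-set brightness in arbitrary units, so a gene is compared only with itself across arrays. The median gene had an intensity of 81.02 to 89 on the WAT arrays and 66.03 to 70.32 on the BAT arrays, and the number of arrays limits the precision. Differences are given as log2(intensity + 16), with the standard error (SE) of limma fitted over all 12 arrays, and the fold of a dim gene is understated on this scale. A gene was called at a Benjamini-Hochberg adjusted p under 0.05 over all 19938 genes. The tissue labels were checked with marker lists. Brown adipocyte markers (8 of 8 measured, Ucp1 among them) summed to 223.4 to 313.8 in WAT of per2+/+, 5578 to 9784 in WAT of per2-/-, 31490 to 34980 in BAT of per2+/+ and 32150 to 35270 in BAT of per2-/-. Per2 intensity was 112 ± 11.4 (SD, n = 3) in WAT of per2+/+ and 132 ± 35.0 in WAT of per2-/-, and 165 ± 8.22 and 149 ± 9.85 in BAT. The sources used here do not say which exons the Per2 row reads or which were deleted, and the Per2 values therefore check nothing about the genotype. Replicate 3 of WAT of per2-/- stood apart, with a rank correlation as low as 0.954 to the other arrays of its group, against at least 0.980 within each of the other 3 groups. Tissue differences in per2-/- of the Hox members called lower in BAT are given with and without it. Log2 differences printed for genes other than the Hox members come from fits that include it.

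The comparison of BAT with WAT asked which Hox genes distinguish the tissues. In per2+/+ mice 12 of 37 members were lower in BAT and 9 were higher, and 16 were not called. Over all genes 30.3% were called lower and 20.3% higher. With a limit of at least 2-fold, 12 members were lower and 2 higher, where 12.1% of all genes were lower and 5.64% higher. The lower members were Hoxb2, Hoxb4, Hoxb5, Hoxb6, Hoxb7, Hoxb9, Hoxc6, Hoxc8, Hoxd3, Hoxd4, Hoxd8 and Hoxd9, and the higher ones Hoxa2, Hoxa4, Hoxa5, Hoxa9, Hoxb13, Hoxc5, Hoxc10, Hoxc12 and Hoxd12. In per2-/- mice 11 were lower and 12 higher, against 26.8% and 20.2% of all genes. At least 2-fold, 11 were lower and 2 higher, against 10.1% and 4.57%. The median log2 difference of the members was 0.01 in per2+/+ and 0.12 in per2-/-, and that of all genes was -0.03 and 0.01. Centring each array on its median raised the median of all genes to 0.28 in both genotypes (0.13 with quantile normalization). It changed the split of called members to 19 higher and 12 lower in per2+/+ (61.3% higher against 42.9%) and to 20 higher and 11 lower in per2-/- (64.5% against 52.2%). Of all 19938 genes, median centring called 13276 in per2+/+ and 12723 in per2-/-, against 10091 and 9375 without it. Under all 3 scalings 12 and 11 members were lower, and the number called higher depended on the scaling. Without replicate 3 of WAT of per2-/- 23 members were called in each genotype, against 56.1% of all genes in per2+/+ and 49.8% in per2-/-.

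**Figure D1:**
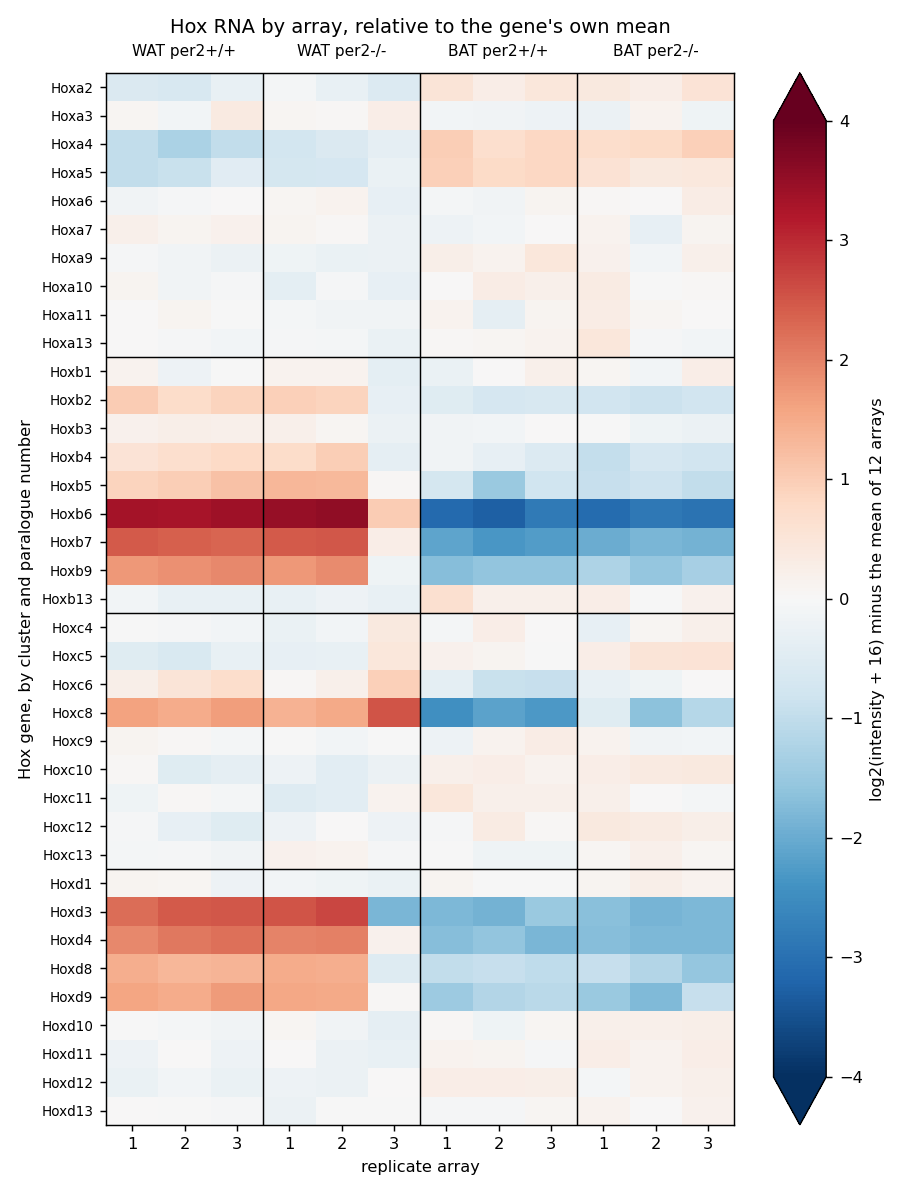
Heat map of the 37 Hox genes (rows, by cluster and paralogue number) on the 12 arrays (columns, 3 replicates in each of 4 groups); colour is log2(intensity + 16) minus the mean of that gene over the 12 arrays. Hoxb2 to Hoxb9 except Hoxb3, Hoxc6, Hoxc8 and Hoxd3 to Hoxd9 are redder in WAT and blue in BAT, Hoxa4 and Hoxa5 run the other way, and replicate 3 of WAT of per2-/- is paler or blue in the Hoxb and Hoxd rows.

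The Hoxb cluster held the widest difference between the tissues of any member. Hoxb6, a gene of the middle of the cluster, read 6792, 6599 and 7082 in WAT of per2+/+ and 62.3, 53.3 and 78.1 in BAT of per2+/+. In per2-/- it read 7544, 7816 and 1338 in WAT and 63.6, 77.1 and 70.5 in BAT. Every WAT array was above every BAT array, although replicate 3 of WAT of per2-/- lay well under the other 5. The log2 difference of BAT minus WAT was -6.42 (SE 0.50, adjusted p = 1.06e-06) in per2+/+ and -5.64 (SE 0.50, adjusted p = 4.45e-06) in per2-/-, and -6.48 (SE 0.12) in per2-/- without replicate 3.

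Hoxb7, its neighbour, read 2673, 2607 and 2497 in WAT of per2+/+ and 2680, 2771 and 581 in WAT of per2-/-. In BAT it read 99.2, 82.6 and 89.2 in per2+/+ and 110, 124 and 116 in per2-/-. The tissues did not overlap, and the log2 differences were -4.62 and -3.64 (SE 0.44 each). Without replicate 3 of WAT the per2-/- difference was -4.37 (SE 0.09). Hoxb9, the next member towards the tail, read 608, 642 and 693 in WAT of per2+/+ and 40.9, 46.5 and 47.1 in BAT. In per2-/- its arrays read 607, 675 and 150 in WAT and 64.1, 47.8 and 58.5 in BAT. Its log2 differences were -3.45 and -2.52 (SE 0.40 each), again with replicate 3 the lowest WAT array. With that array left out the per2-/- difference was -3.18 (SE 0.11).

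Members at the head end of the Hoxb cluster differed less. Hoxb5 read 115, 125 and 143 in WAT of per2+/+ and 27.0, 9.21 and 24.8 in BAT, and 162, 156 and 56.7 against 21.1, 24.0 and 20.1 in per2-/- (log2 differences -2.02 and -1.79, SE 0.30). Hoxb2, a gene of the hindbrain and neck, read 163, 131 and 147 against 46.4, 39.1 and 39.8 in per2+/+ and 155, 148 and 54.3 against 35.7, 33.0 and 36.0 in per2-/- (-1.50 and -1.30, SE 0.26). Hoxb4 read 129, 144 and 157 against 75.1, 64.01 and 52.4 in per2+/+ and 152, 182 and 62.5 against 35.3, 46.2 and 43.1 in per2-/- (-1.002 and -1.26, SE 0.27). WAT and BAT arrays of each genotype did not overlap for any of the 3. In per2-/- the differences of Hoxb5, Hoxb2 and Hoxb4 were -2.21, -1.72 and -1.67 (SE 0.19, 0.10 and 0.14) without replicate 3 of WAT. Hoxb3 lies between Hoxb2 and Hoxb4 and differed little: it read 891, 924 and 905 in WAT of per2+/+ and 705, 720 and 800 in BAT (-0.29, SE 0.12, adjusted p = 0.0565). Without replicate 3 of WAT of per2-/-, which then no longer enters the shared spread, Hoxb3 was called lower in both genotypes. Hoxb1 was not called in either genotype, and Hoxb13, at the tail end of the cluster, was higher in BAT (0.59 and 0.41, SE 0.13). In per2-/- the Hoxb13 call was lost without replicate 1 or 3 of BAT.

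In the Hoxd cluster the lower members were Hoxd3, Hoxd4, Hoxd8 and Hoxd9, which are consecutive genes of the cluster. Hoxd4 read 539, 621 and 651 in WAT of per2+/+ and 29.1, 33.4 and 25.2 in BAT, and 563, 580 and 147 against 28.4, 25.7 and 25.9 in per2-/-. Its log2 differences were -3.77 and -3.17 (SE 0.38). Hoxd9 read 271, 251 and 294 against 18.8, 26.8 and 29.3 in per2+/+ and 264, 258 and 82.2 against 17.9, 12.3 and 35.0 in per2-/- (-2.82 and -2.42, SE 0.34). Hoxd8 read 851, 783 and 800 against 143, 153 and 139 in per2+/+, and 865, 857 and 203 against 150, 124 and 91.8 in per2-/- (-2.36 and -2.02, SE 0.41). Leaving out replicate 3 of WAT gave per2-/- differences of -3.78 for Hoxd4, -2.92 for Hoxd9 and -2.69 for Hoxd8 (SE 0.10, 0.20 and 0.14). All WAT arrays of these 3 genes were above all BAT arrays.

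Hoxd3 was the exception to that separation. It read 2096, 2436 and 2520 in WAT of per2+/+ and 115, 105 and 145 in BAT, a log2 difference of -4.11 (SE 0.88, adjusted p = 0.00198). In WAT of per2-/- it read 2552 and 2835 in replicates 1 and 2 and 110 in replicate 3, which lies among the BAT readings of 124, 108 and 112. The difference in per2-/- was -2.90 (SE 0.88, adjusted p = 0.0176) and -4.37 (SE 0.13, adjusted p = 6.97e-11) without replicate 3. It was no longer called without replicate 1 (adjusted p = 0.0711), without replicate 2 (adjusted p = 0.0744) or from the 6 per2-/- arrays alone (adjusted p = 0.0872). Over its 18 alternatives the adjusted p ran from 6.97e-11 to 0.0872. Hoxd1, Hoxd10 and Hoxd11 were called higher in BAT of per2-/- alone, by 0.35, 0.36 and 0.40, and Hoxd12 in per2+/+ alone, by 0.47. Hoxd1 lost its call without replicate 2 of BAT, and Hoxd10 without replicate 2 or 3 of WAT or any one BAT array. Hoxd12 was also called in per2-/- without replicate 3 of WAT, while Hoxd10 was not. None of these 4 was shown to differ between the genotypes (difference of differences, adjusted p = 0.532, 0.646, 0.729 and 0.624). Hoxd13 was not called.

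The Hoxc cluster was mixed. Hoxc8 read 608, 550 and 630 in WAT of per2+/+ and 20.9, 29.6 and 25.3 in BAT, and 514, 561 and 1132 against 129, 49.2 and 76.4 in per2-/-. All WAT arrays were above all BAT arrays, and replicate 3 of WAT of per2-/- was the highest of all. The log2 differences were -3.89 and -2.88 (SE 0.30). With replicate 3 of WAT left out the per2-/- difference was -2.53 (SE 0.24). Hoxc6 was lower in BAT of per2+/+ (-1.21, SE 0.22), with 150, 187 and 214 in WAT against 93.1, 60.3 and 59.3. In per2-/- its difference of -0.56 was not called (adjusted p = 0.0594), although its arrays of 132, 148 and 256 and of 101, 109 and 126 did not overlap. This Hoxc6 difference was -0.29 (SE 0.17, limma adjusted p = 0.195) without replicate 3 of WAT. Hoxc5 was higher in BAT by 0.57 and 0.50, Hoxc10, a gene of the lumbar region and hindlimb, by 0.46 and 0.62, and Hoxc12 by 0.39 and 0.45. In per2+/+ Hoxc5 lost its call without replicate 1 or 2 of WAT or of BAT, and Hoxc12 without replicate 2 or 3 of WAT or 2 of BAT. In per2-/- Hoxc5 lost it without replicate 1 or 2 of WAT or 2 or 3 of BAT, and Hoxc12 without replicate 1 of BAT. Hoxc4, Hoxc9, Hoxc11 and Hoxc13 were not called. Without replicate 3 of WAT of per2-/- Hoxc11 was called higher in BAT in both genotypes (0.36 and 0.51).

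In the Hoxa cluster limma called no member lower in BAT. Hoxa4 read 55.4, 42.6 and 55.7 in WAT of per2+/+ and 266, 213 and 234 in BAT, and 69.0, 79.5 and 95.6 against 218, 226 and 258 in per2-/-. The log2 differences were 1.92 (SE 0.13, adjusted p = 3.16e-07) and 1.37 (SE 0.13, adjusted p = 6.4e-06). Hoxa5, a gene of the neck and upper chest that also patterns the lung, read 150, 161 and 221 in WAT of per2+/+ and 618, 542 and 562 in BAT, and 182, 188 and 254 against 472, 406 and 419 in per2-/- (1.63 and 1.01, SE 0.15). All BAT arrays of both genes were above all WAT arrays. Hoxa2 was higher in BAT by 0.93 and 0.71 and Hoxa9 by 0.40 and 0.31, and Hoxa10 was called in per2-/- alone (0.38). In per2-/- Hoxa9 lost its call without replicate 2 or 3 of WAT or 1 or 3 of BAT, and Hoxa10 without replicate 1 or 3 of either tissue. Hoxa3, Hoxa6, Hoxa7, Hoxa11 and Hoxa13 were not called in either genotype. Of these, Hoxa7 read 334, 360 and 391 in BAT of per2+/+ against 447, 423 and 440 in WAT, without overlap (-0.27, SE 0.13, adjusted p = 0.122). The p-value of the authors' deposited table, adjusted here, called it (0.0388), as it did 52.3% of all genes.

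**Figure D2:**
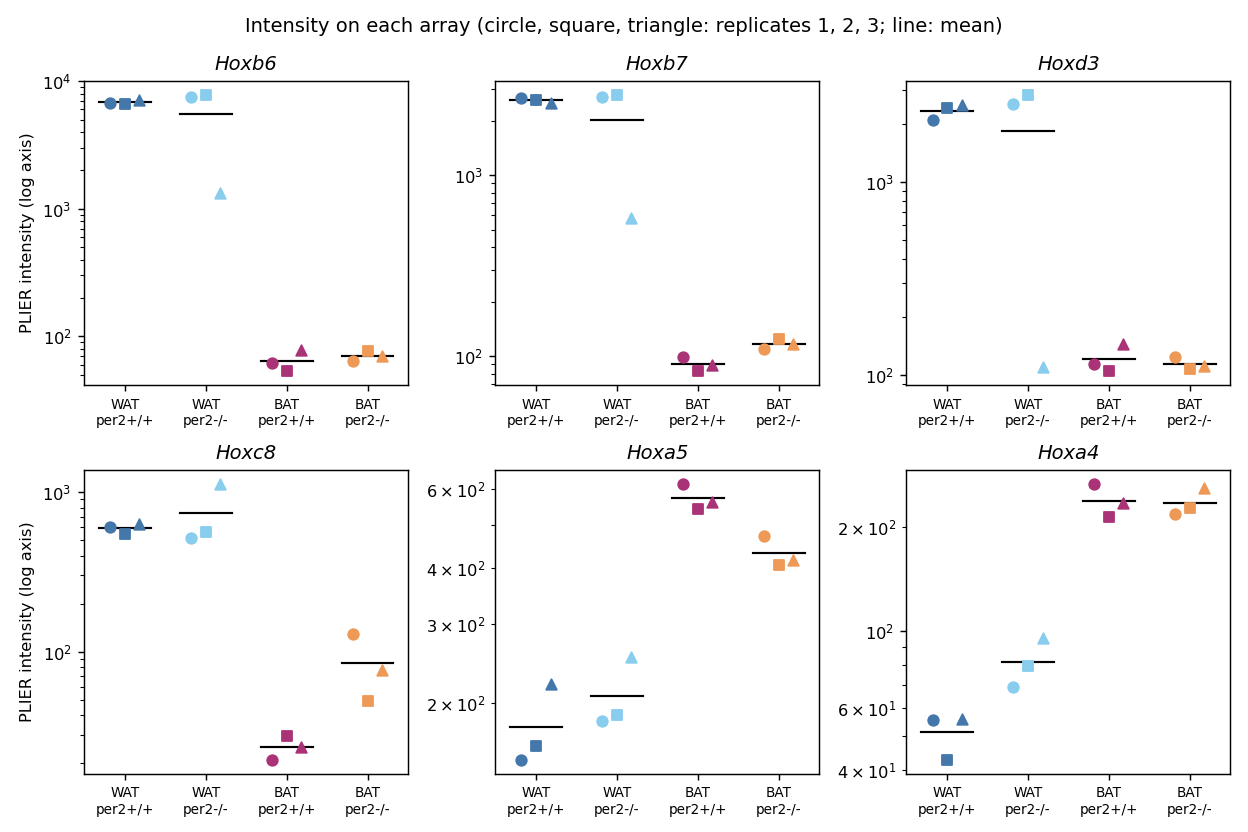
Intensity of 6 members on each array (log axis, PLIER units); colours are the 4 groups, circle, square and triangle are replicates 1, 2 and 3, and the line is the group mean. Hoxb6, Hoxb7, Hoxd3 and Hoxc8 are high in WAT and low in BAT, Hoxa4 and Hoxa5 the reverse, and the triangle of WAT of per2-/- is low for Hoxb6 and Hoxb7, at the BAT level for Hoxd3 and highest for Hoxc8.

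Read by paralogue number, called genes of the same number went opposite ways in different clusters for some numbers and the same way for others. In per2+/+ Hoxa2 was higher in BAT and Hoxb2 lower. Hoxa4 was higher, Hoxb4 and Hoxd4 were lower and Hoxc4 was not called. Hoxa5 and Hoxc5 were higher and Hoxb5 was lower, and Hoxa9 was higher, Hoxb9 and Hoxd9 were lower and Hoxc9 was not called. Hoxb6 and Hoxc6 were both lower, as were Hoxc8 and Hoxd8, while Hoxc12 and Hoxd12 were both higher. Of the 11 members with numbers 1 to 4, 4 were lower and 2 higher, and of the 14 with numbers 5 to 9, 8 were lower and 3 higher, where 30.3% of all genes were lower and 20.3% higher. None of the 12 members with numbers 10 to 13 was called lower in either genotype. Of these, 4 were higher in per2+/+ and 6 in per2-/-, against 20.3% and 20.2% of all genes. All differed by less than 2-fold (the largest difference was 0.62), and their median was 0.19 and 0.33. Several were dim in both tissues, with means in WAT and BAT of per2+/+ of 11.3 and 10.9 (Hoxc13), 17.8 and 27.4 (Hoxc11) and 21.0 and 23.3 (Hoxd10). A gene that is dim in WAT has little room to be called lower in BAT. Hoxd13 was the brightest, at 300 and 301.

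**Figure D3:**
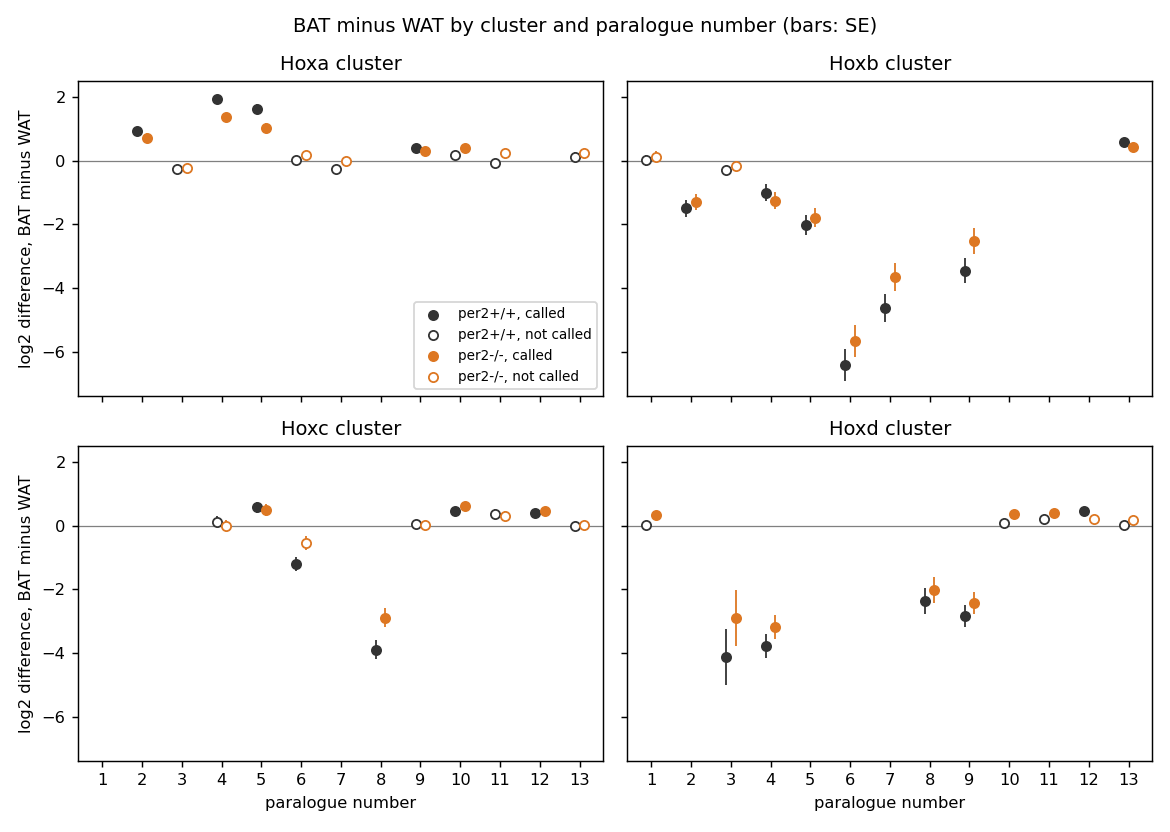
Log2 difference of BAT minus WAT (y axis, bars are the SE) against paralogue number (x axis) for each cluster, in per2+/+ (black) and per2-/- (orange), with filled points called at adjusted p under 0.05. Called negative values lie between numbers 2 and 9 of Hoxb, 6 and 8 of Hoxc and 3 and 9 of Hoxd, with the minimum of -6.42 at Hoxb6, and the Hoxa points reach 1.92 at Hoxa4.

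The tissue comparisons of the 2 genotypes share no array and gave largely the same members. Of the members called, 19 were called in both with the same direction (8 higher and 11 lower) and 0 with opposite directions. They made up 90.5% of the 21 members called in per2+/+ and 82.6% of the 23 called in per2-/-, against 77.5% and 83.4% over all genes. Hoxc6 and Hoxd12 were called in per2+/+ alone and Hoxa10, Hoxd1, Hoxd10 and Hoxd11 in per2-/- alone. The 12 members called in neither were Hoxa3, Hoxa6, Hoxa7, Hoxa11, Hoxa13, Hoxb1, Hoxb3, Hoxc4, Hoxc9, Hoxc11, Hoxc13 and Hoxd13. Both limma comparisons use 1 shared estimate of the spread per gene. The p-values of the authors' regularized t tests, adjusted here, called Hoxc6 in per2-/- (0.0403) but not Hoxa9 (0.116) or Hoxd1 (0.0776). They called 8095 of all genes there. In per2+/+ they also called Hoxa7, Hoxb3 and Hoxc11 (0.0388, 0.0177 and 0.025), and 52.3% of all genes.

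Markers of other tissues and cell types moved with the same comparison. Of 15 listed markers of the epididymis and male reproductive tract 13 were measured, and they summed to 106300 to 114000 in WAT of per2+/+ and 27430 to 114000 in WAT of per2-/-. In BAT they summed to 115.4 to 278.8 and 95.82 to 105.5, with 12 of 13 called lower in BAT in each genotype and none listed at exactly 0. Mesothelium markers (8 of 8) summed to 6095 to 6323 and 3356 to 5277 in WAT and to 124 to 178.4 and 154.6 to 219.6 in BAT. Skeletal muscle markers (12 of 12) ran the other way, at 221.6 to 233.4 and 554 to 1812 in WAT and 9841 to 40570 and 5418 to 18150 in BAT. Fibroblast markers (9 of 9) summed to 13740 to 21580 and 9312 to 13650 in WAT and to 4923 to 6224 and 3533 to 4176 in BAT, with 7 called lower in each genotype. Of 7 macrophage and lymphocyte markers 5 were lower in per2+/+ and 4 in per2-/-. Of 5 endothelial markers 3 were higher and 1 lower in per2+/+, and 2 higher and 1 lower in per2-/-. Of 7 white or common adipocyte markers 4 were lower in each genotype, and 1 was higher in per2+/+. Over all genes 30.3% were lower and 20.3% higher in per2+/+, and 26.8% and 20.2% in per2-/-. The part of these tissues and cell types in the Hox differences was not tested.

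Replicate 3 of WAT of per2-/- differed from the other 5 WAT arrays in the Hox genes as well. A rule chosen after the values were seen counted genes at least 0.5 on the log2 scale outside all 5. It found 10 members below (Hoxb2, Hoxb4, Hoxb5, Hoxb6, Hoxb7, Hoxb9, Hoxd3, Hoxd4, Hoxd8 and Hoxd9) and 2 above (Hoxc5 and Hoxc8). Over all genes 7.3% lay below and 6.43% above. For each of the other 5 WAT arrays the rule found 0 members and at most 0.201% of genes in a direction. Replicate 3 was among the arrays that each of these was compared with, and its outlying values widen that range. The low counts of the other arrays are therefore partly set by the rule. All 10 are among the 12 members that were lower in BAT of per2+/+, and the remaining 2, Hoxc6 and Hoxc8, were not below.

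In percent of the mean of replicates 1 and 2, replicate 3 read 17.4% for Hoxb6, 21.3% for Hoxb7, 23.5% for Hoxb9, 23.6% for Hoxd8, 25.8% for Hoxd4 and 31.5% for Hoxd9. Hoxb2, Hoxb4 and Hoxb5 stood at 35.9%, 37.5% and 35.7%, and Hoxd3 at 4.08%. Of the Hoxc genes 4 went the other way, with 157% for Hoxc4, 182% for Hoxc5, 183% for Hoxc6 and 211% for Hoxc8, as did Hoxa4 (129%) and Hoxa5 (137%). Among marker genes with an intensity of at least 50, the 10 of the epididymis read 17.1% to 31.4% (median 25.1%), the 7 white or common adipocyte markers 113% to 279%, the 7 brown adipocyte markers 63.3% to 282%, the 9 fibroblast markers 64.8% to 192% and the 5 endothelial markers 146% to 212%. Mesothelium markers were split, with Krt8, Krt18 and Krt19, keratins shared by many epithelia, at 23.2%, 19.8% and 37.4% and Msln, Upk3b, Lrrn4 and Wt1 at 182% to 231%. The remaining 8 Hoxb and Hoxd members did not meet that rule and stood at 57.2% (Hoxb1) to 136% (Hoxd12). The relation of the Hox readings to the markers was not tested.

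**Figure D4:**
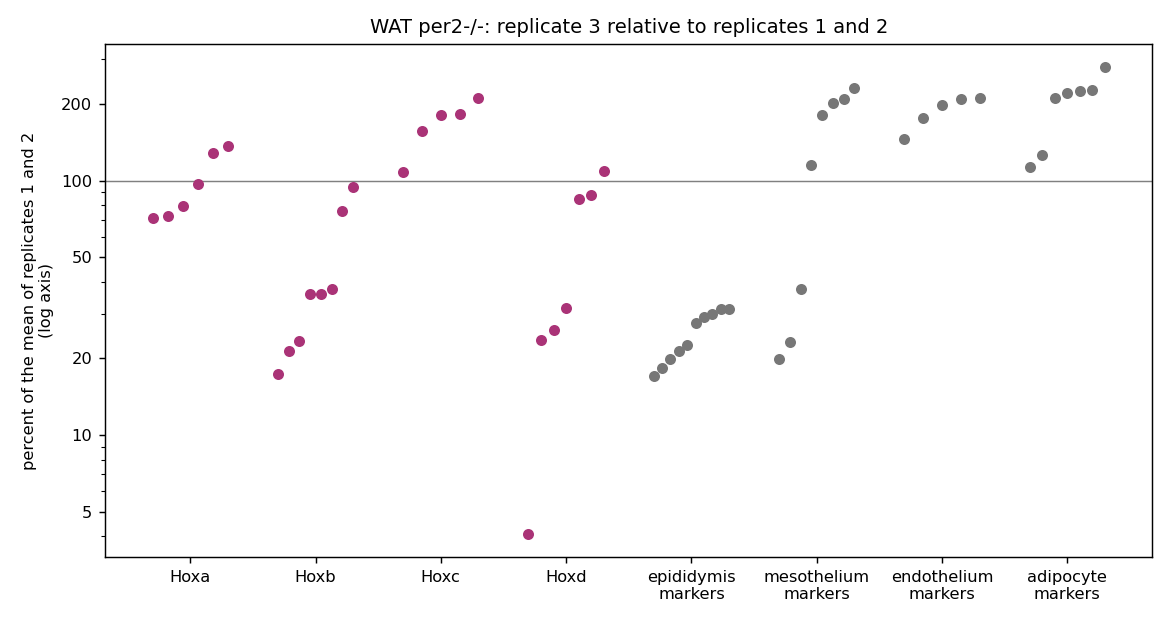
Replicate 3 of WAT of per2-/- in percent of the mean of replicates 1 and 2 (log axis); each point is a gene with a mean intensity of at least 50 in those 2 arrays, purple for the 4 Hox clusters and grey for markers of the epididymis, mesothelium, endothelium and adipocytes. Points of Hoxb and Hoxd reach down to 17.4% and 4.08%, beside epididymis markers at 17.1% to 31.4%, and Hoxc points reach up to 211%.

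The comparison of per2-/- with per2+/+ in WAT asked whether loss of Per2 went with a change of Hox RNA in white fat. Limma called 0 of 37 members, where 2.42% of all genes were called. At an unadjusted p under 0.05 there were 2 members, Hoxa4 and Hoxc5, against 13.9% of all genes, and the authors' deposited table, adjusted here, also called 0 members and 2.69% of all genes. The arrays of the genotypes did not overlap for 4 members, Hoxa4, Hoxa7, Hoxa11 and Hoxc13, against 20.5% of all genes. Hoxa4 read higher in each per2-/- array (0.53, SE 0.13, adjusted p = 0.0565) and was called in 3 of 18 alternatives, over which its adjusted p ran from 0.00805 to 0.229. One of these left out replicate 1 of WAT of per2-/- (0.62, adjusted p = 0.0396). The widest negative difference was -1.28 for Hoxd3 (SE 0.88), followed by -0.69 for Hoxd4 (SE 0.38), and both rest on replicate 3. Without it they were 0.20 (SE 0.13) and -0.07 (SE 0.10), and the count stayed at 0 while 4.39% of all genes were called. At an unadjusted p under 0.05 there were then 4 members, against 14.9% of all genes. Hoxb6 likewise went from -0.67 (SE 0.50) to 0.17 (SE 0.12). Among the marker lists, 6 of 8 brown adipocyte markers and 1 of 12 skeletal muscle markers were called higher in the same comparison, and 3 of 9 fibroblast markers and 1 of 8 mesothelium markers lower.

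In BAT limma also called 0 of 37 members between the genotypes, where 1.72% of all genes were called. At an unadjusted p under 0.05 there were 4, Hoxa5, Hoxc6, Hoxc8 and Hoxc13, against 12.5% of all genes. The arrays did not overlap for 14 members, 10 higher and 4 lower in per2-/-, against 22.4% of all genes. Hoxc8, a gene of the trunk, read 20.9, 29.6 and 25.3 in per2+/+ and 129, 49.2 and 76.4 in per2-/-. Each per2-/- array was above each per2+/+ array, but the 3 per2-/- arrays were spread widely. Its log2 difference was 1.22 (SE 0.30, adjusted p = 0.0768), and over 19 alternatives the adjusted p ran from 0.000302 to 0.255, with a call in 3 of them. Hoxc6 differed by 0.58 (SE 0.22, adjusted p = 0.294) and Hoxa5 by -0.40 (SE 0.15, adjusted p = 0.283).

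The spread of a gene is shared by all 4 groups, so the outlying WAT array also bears on the BAT test. Without replicate 3 of WAT of per2-/-, an alternative chosen after seeing the data, limma called Hoxc8 (1.22, SE 0.22, adjusted p = 0.00705) and Hoxb7 (0.32, SE 0.08, adjusted p = 0.0445), and 5.18% of all genes. The members at an unadjusted p under 0.05 then numbered 10, against 18.9% of all genes. Hoxb7 read 99.2, 82.6 and 89.2 in per2+/+ and 110, 124 and 116 in per2-/-, and its adjusted p over 19 alternatives ran from 0.0445 to 0.934. The authors' p-values in the authors' deposited table, adjusted here over all genes, called Hoxc8 and Hoxc6 higher and Hoxa5 and Hoxb4 lower in per2-/- BAT, with adjusted p of 0.000302, 0.0174, 0.00785 and 0.0491, and 5.38% of all genes. Over all alternatives the adjusted p ran to 0.609 for Hoxc6, 0.54 for Hoxa5 and 0.769 for Hoxb4. From the 6 BAT arrays alone limma called 0 members, and 440 of all genes. In the same comparison skeletal muscle markers summed to 9841 to 40570 in per2+/+ and 5418 to 18150 in per2-/-, and fibroblast markers (9 of 9) to 4923 to 6224 and 3533 to 4176. Limma called 0 members of either list, and at an unadjusted p under 0.05 6 and 5 were lower. The part of these cell types in the Hox differences was not tested.

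**Figure D5:**
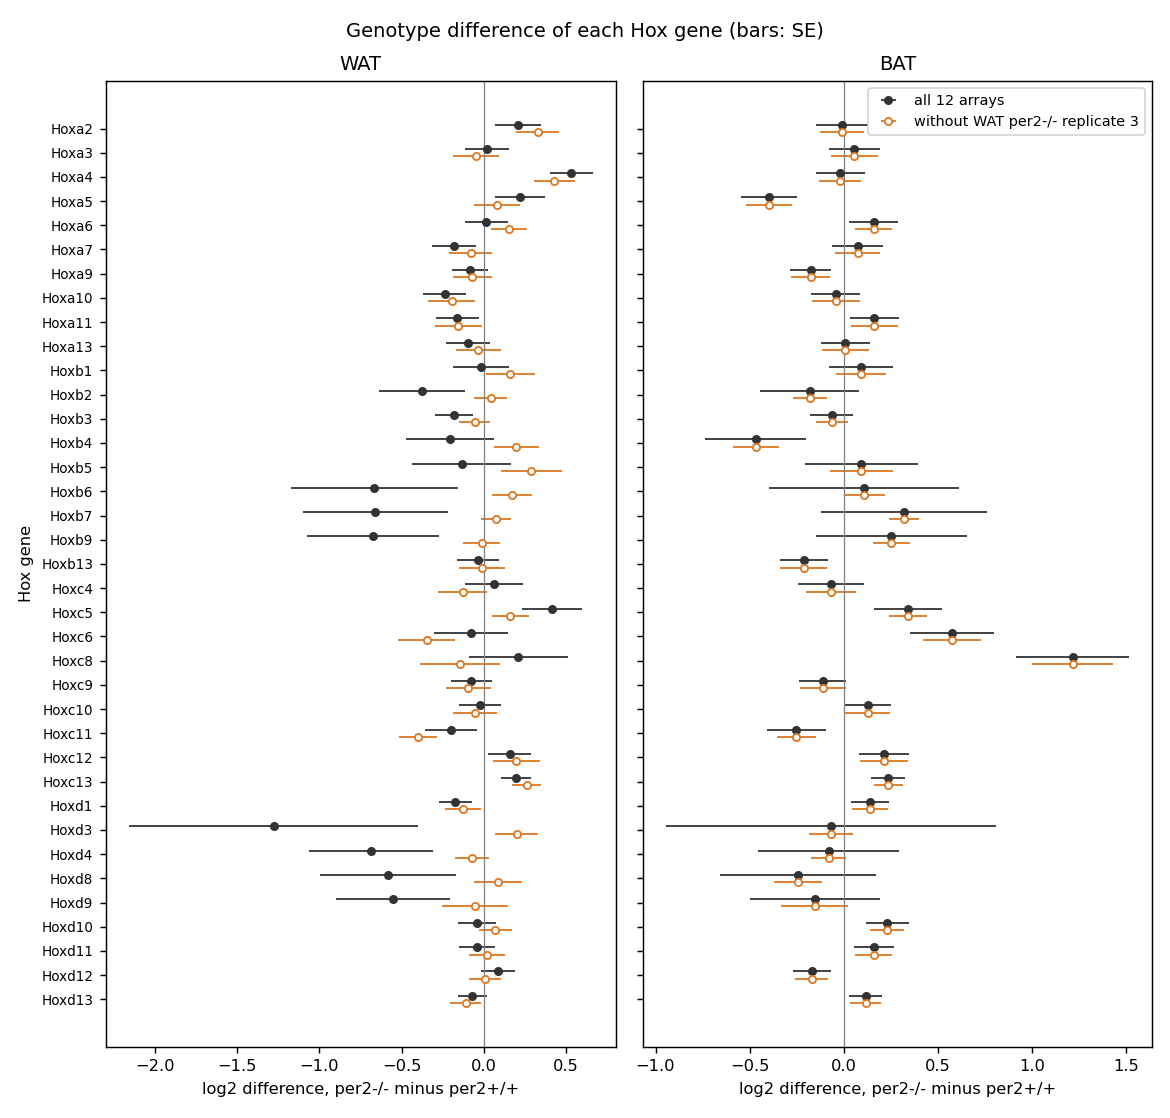
Log2 difference of per2-/- minus per2+/+ (x axis, bars are the SE) for each Hox gene (y axis) in WAT and BAT, from all 12 arrays (black) and without replicate 3 of WAT of per2-/- (orange, open). In WAT the black points of the Hoxb and Hoxd genes reach -1.28 at Hoxd3 and return to near 0 without that array, and in BAT Hoxc8 stands at 1.22 in both fits, with an SE of 0.30 and 0.22.

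The genotype difference in BAT minus that in WAT, or difference of differences, was called by limma for 0 members, where 0.592% of all genes were called. At an unadjusted p under 0.05 there were 3, Hoxa4 (-0.55, SE 0.18, adjusted p = 0.322), Hoxa5 (-0.62, SE 0.21, adjusted p = 0.353) and Hoxc8 (1.01, SE 0.43, adjusted p = 0.482), against 9.45% of all genes. Without replicate 3 of WAT of per2-/- the count was again 0, against 1.87% of all genes, with Hoxc8 at 1.36 (SE 0.33, adjusted p = 0.0622). There were then 5 members at an unadjusted p under 0.05, against 12.4% of all genes.

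Other genes tied to Hox function were read from 5 lists, whose counts stand against the 30.3% of all genes called lower and 20.3% called higher in per2+/+, and 26.8% and 20.2% in per2-/-. Of the TALE homeodomain proteins, which bind DNA together with Hox proteins, 8 of 9 were measured, and 3 were lower and 1 higher in BAT in each genotype. Meis1 (-0.67 in per2+/+ and -0.92 in per2-/-), Pknox1 (-0.83 and -0.54) and Pbx3 (-0.39 and -0.32) were the lower ones in both, and the higher one was Meis2 in per2+/+ (0.36, against 0.19 in per2-/-) and Pbx4 in per2-/- (0.60, against 0.15 in per2+/+). Their median was -0.04 and -0.17. Of the other positional transcription factors 37 of 40 were measured, with 10 higher and 11 lower in each genotype. The orphan receptor Nr2f2 (-1.51 and -1.33) and the mesenchymal homeobox gene Prrx1 (-2.42 and -1.87) were lower in both. Emx2, a homeobox gene of the developing urogenital tract, was lower in both (-4.30 and -3.68), and Tbx5, a T-box gene of forelimb and heart, was higher in both (1.34 and 0.89). Osr1, of intermediate mesoderm, and Wt1, also on the mesothelium list, were also lower in both, Osr1 by log2 differences of -1.68 and -1.73 and Wt1 of -1.23 and -1.84. Replicate 3 of WAT of per2-/- read 14.7% of the mean of the other arrays of its group for Emx2 and 50.7% for Prrx1. It read 90.9% for Nr2f2, 153% for Tbx5, 205% for Osr1 and 182% for Wt1.

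Of 16 retinoid, Cdx and signalling genes that act upstream of Hox clusters, 3 were higher and 5 lower in per2+/+ and 1 was higher and 5 lower in per2-/-. The retinaldehyde dehydrogenases Aldh1a1 (-4.74 and -4.62), Aldh1a2 (-2.84 and -2.77) and Aldh1a3 (-1.11 and -1.24), which make retinoic acid, were lower in BAT, and the receptor Rarb was higher (1.80 and 1.42). Of the Polycomb and trithorax proteins, which hold Hox chromatin silent or active, 30 of 32 were measured, with 3 higher and 16 lower in per2+/+ and 2 higher and 14 lower in per2-/-. Phc3 (-1.25 and -1.43), Rbbp4 (-0.62 and -0.58) and Rbbp7 (-1.87 and -1.48) were lower in both. The ubiquitin ligase gene Rnf2 (-0.83 and -0.60) and the methyltransferase gene Kmt2a (-0.76 and -0.87) were lower in both as well. On the same measure replicate 3 of WAT of per2-/- stood at 44.6% for Rbbp7, 51.9% for Aldh1a1 and 59.8% for Phc3. The other genes named in this paragraph stood at 81.6% (Rnf2) to 177% (Rarb).

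Of the non-coding transcripts of the Hox clusters 10 of 14 were measured, with 2 higher and 3 lower in per2+/+ and 2 higher and 2 lower in per2-/-. Mir10a read 14.4, 27.1 and 29.6 in WAT of per2+/+ and 0.940, 3.76 and 4.63 in BAT, and 40.1, 36.8 and 13.4 against 1.09, 4.06 and 2.28 in per2-/- (-1.04 and -1.27, SE 0.23). Mir10b read 17.4, 28.7 and 27.8 against 3.57, 4.22 and 0.345 in per2+/+ and 38.3, 35.5 and 6.43 against 0.0137, 1.65 and 1.12 in per2-/- (-1.11 and -1.23, SE 0.27). Within each genotype WAT and BAT did not overlap for either microRNA, and replicate 3 of WAT of per2-/- was again the lowest WAT array. The sources used here do not say whether a row reads the mature form or its precursor. Mir615, in the Hoxc cluster, was higher in BAT (0.36 and 0.48), Haglr, a long non-coding RNA of the Hoxd cluster, was called lower in per2+/+ (-0.39, against -0.01 in per2-/-) and Hoxaas2 was higher in both (0.33 and 0.37). In none of the 5 lists did limma call a member between the genotypes in WAT, in BAT or in the difference of differences. At an unadjusted p under 0.05 the lists held 10 members in WAT, 5 in BAT and 6 in the difference of differences, against 13.9%, 12.5% and 9.45% of all genes.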

How the data were processed

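RNA of 12 samples (4 groups, 3 arrays each) was hybridised to 1-colour Affymetrix arrays, per the labels. The deposited intensity values are linear PLIER summaries, per the submitters' processing notes; the scaling between arrays and the genome build of the array were not given in the sources used here. The authors' comparison tables hold p-values of regularized t tests on natural logs without adjustment (Cyber-T 8.01, hdarray 3.71, R 2.2.1), per the file headers; they were adjusted here over 19931 genes.

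Of 35557 rows, 21789 name 1 gene in the platform's gene table. The row with the highest mean over the 12 arrays stood for a gene, giving 19938 genes. Limma 3.58.1 (R 4.3.3) was run on log2(intensity + 16), with a mean for each of the 4 groups and without trend (8 residual and 3.51 prior degrees of freedom). The 5 comparisons were BAT minus WAT in each genotype, per2-/- minus per2+/+ in each tissue and the difference of the genotype differences. P-values were adjusted by Benjamini-Hochberg over all genes. They measure the spread between these samples, since the labels say no more of the replicates than that they are biological. The SE of a tissue difference had a median of 0.127 over all genes and 0.134 over the Hox members.

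The members and lists were chosen with earlier results of these data known. Genes named with values are Per2, every called Hox member, those of largest difference without overlap on every array, and up to 4 called members of each list with the smallest p. The rule for replicate 3 of WAT of per2-/- with its percent values was chosen after the values were seen. So were the fits without that array for BAT and for per2+/+, the members followed in the genotype comparisons and the printed sequences. Percent ranges of the marker lists use genes of at least 50 in replicates 1 and 2, and percent values of single genes have no such limit. All 37 members matched the RefSeq gene table by identifier. The alternatives were other added constants (1 and 64), 2 scalings, only the arrays compared, a variance trend, array weights, a replicate block, brighter genes, the authors' transcripts, the mean of a gene's rows, the authors' p-values and leaving out each array.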

Additional observations from a re-analysis of the deposited data

Results flagged for a closer look

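A row of the value table that names both Hoxb8 and Hoxb7 belongs to no single gene and was left out of the comparisons above. In BAT it read 0.0134, 0.0789 and 1.02 in per2+/+ and 3.52, 6.64 and 13.8 in per2-/-, so that each per2-/- array (mean 7.98) was above each per2+/+ array in data that no comparison used. These BAT readings are a small part of those in WAT, which were 357, 338 and 358 in per2+/+ and 454, 427 and 65.6 in per2-/-. Replicate 3 of WAT of per2-/- was the lowest WAT array, as it was for the Hoxb6, Hoxb7 and Hoxb9 rows. No test was run on this row. The rule for replicate 3 of WAT of per2-/- was applied to each WAT array, and no such search was made in BAT. No Hox member had arrays that separated the genotypes in opposite directions in WAT and BAT.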

How the results depend on the processing

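The count of members called in BAT minus WAT stayed within 1.5 times under every alternative run, from 17 (brighter genes, 22 members tested) to 31 (median centring) in per2+/+ and from 16 (brighter genes) to 31 (median centring) in per2-/-. Leaving out an array gave 19 to 23 and 18 to 23. Over all 19938 genes median centring called 13276 and 12723, and the main fit 10091 and 9375. In the genotype comparison of WAT, where the count was 0, array weights called 2 (Hoxa4 at 0.51 and Hoxc11 at -0.41), brighter genes 1 (Hoxa4) and leaving out an array 0 to 1 (Hoxa4 without replicate 1 of per2-/-). Over all genes array weights called 1631 and the fit without that replicate 498, against 482 in the main fit. The brighter genes setting called 466, but it tested only genes with a mean intensity at or above the median. In BAT array weights called 1 (Hoxc8), the authors' p-values 4 (Hoxa5, Hoxb4, Hoxc6 and Hoxc8) and leaving out an array 0 to 2. The 2 were Hoxb7 and Hoxc8, without replicate 3 of WAT of per2-/-. Over all genes array weights called 712 in BAT, the authors' p-values 1072 and the fit without that array 1033, against 343 in the main fit. The cause was not tested, beyond that array weights gave that array 0.115 and at least 0.645 to the others. The difference of differences called 0 under every alternative.

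Of 394 values of the 21 members called in per2+/+, 387 kept their call and 7 lost it. These were Hoxc5 without replicate 1 or 2 of either group (adjusted p = 0.0521 to 0.0762) and Hoxc12 without replicate 2 or 3 of WAT or 2 of BAT (0.08 to 0.117). Of 407 values in per2-/-, 374 kept it and 33 lost it, in Hoxa9, Hoxa10, Hoxb13, Hoxc5, Hoxc12, Hoxd1, Hoxd3 and Hoxd10. Of these 33, 23 left out a single array. None of these values changed sign (0 reversed), nor did those of Hoxa4 and Hoxc11 followed between the genotypes in WAT or of Hoxa5, Hoxb4, Hoxb7, Hoxc6 and Hoxc8 in BAT. Members not followed did, such as Hoxd3 and Hoxb6 in WAT without replicate 3 of per2-/-. Same-numbered arrays did not deviate together (12 correlations from -0.119 to 0.0919, 0 over 0.1). With so few arrays in a group this cannot decide whether WAT and BAT of a number came from the same animal. With the replicate block the counts were 21, 22, 0, 0 and 0, and Hoxa10 in per2-/- lost its call (adjusted p = 0.0526). With 3 arrays a group and no background reading, dim genes have no measured floor.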
